A study of Mus musculus with 7 samples.

Results

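The interferon response genes described here are 35 genes that cells switch on when interferon reaches them, and all 35 were found on the arrays by the gene name in the scanner files. They were measured by 46 probes, and each gene is represented by its brightest probe, among 23312 genes tested in all. They fall by role into 6 cytosolic nucleic acid sensors and their editor, 4 transcription factors, 2 genes of the ISG15 system, 14 antiviral effectors, 5 interferon-inducible GTPases and 4 other induced genes. They were taken by gene name, with no threshold on a measured value.

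Brain RNA came from male mice of the C57BL/6N background in 3 groups. There were 3 knockout samples (Pla2g2e -/-) and 3 wild type samples from day 3 after a transient occlusion of the middle cerebral artery lasting 60 min, and 1 wild type sample described as sham-operated. The occlusion is a model of ischemic stroke, and Pla2g2e encodes a secreted phospholipase A2, an enzyme that releases fatty acids from membrane lipids. The treatment text of all 7 samples, the sham sample included, names the occlusion, and no age and no hemisphere or region of the brain is given. Whether replicates were separate animals is not stated, and the p-values cover the spread between the samples at hand, which may be technical.

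Type I interferons bind the receptor made of Ifnar1 and Ifnar2, whose kinases Jak1 and Tyk2 phosphorylate Stat2. Stat2 and Irf9 take part in a complex that binds the interferon-stimulated response element in promoters, while interferon gamma has a receptor of its own. In brain, microglia, endothelial cells, astrocytes and invading myeloid cells are known to answer interferon, and the response is described after ischemia as well as after infection.

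The arrays, 1 a sample and in 1 colour, had 43020 non-control spots, with 31177 to 34029 well above background and 0 saturated. Levels below are log2 signal minus the array's own 75th percentile, so that 0 is the level of a bright probe and each unit is a doubling. Levels belong to single probes and are compared between arrays only. Slide 1 held the wild type day 3 and sham arrays and slide 2 the knockout arrays, which means that genotype and slide cannot be told apart. Wild type day 3 replicate 1 stood apart, with correlations of 0.857 to 0.916 to the other arrays over all genes, against 0.968 to 0.991 among the 15 other pairs. The fitted differences are therefore given with and without that array. In bulk tissue, fewer cells of a type and less RNA per cell cannot be told apart.

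The targeted gene did not separate the labels. The brighter of its 2 probes read -4.44, -5.83 and -4.97 on the knockout arrays, -6.89, -3.68 and -3.36 on the wild type day 3 arrays and -4.69 on the sham array. Wild type replicate 1 lay below all 3 knockout arrays and the other wild type arrays above them. The other probe of Pla2g2e, well above background on 3 arrays, read -7.94, -8.44 and -7.84 on the knockout arrays, against -9.00, -6.72 and -6.50 on the wild type day 3 arrays and -6.83 on the sham array. Where the probes lie relative to the deletion is not given.

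Of the 35 genes, 34 were well above background on every array. Oas3, which makes the activator of the RNA-degrading enzyme RNase L, missed that mark on wild type day 3 replicate 1.

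**Figure D1:**
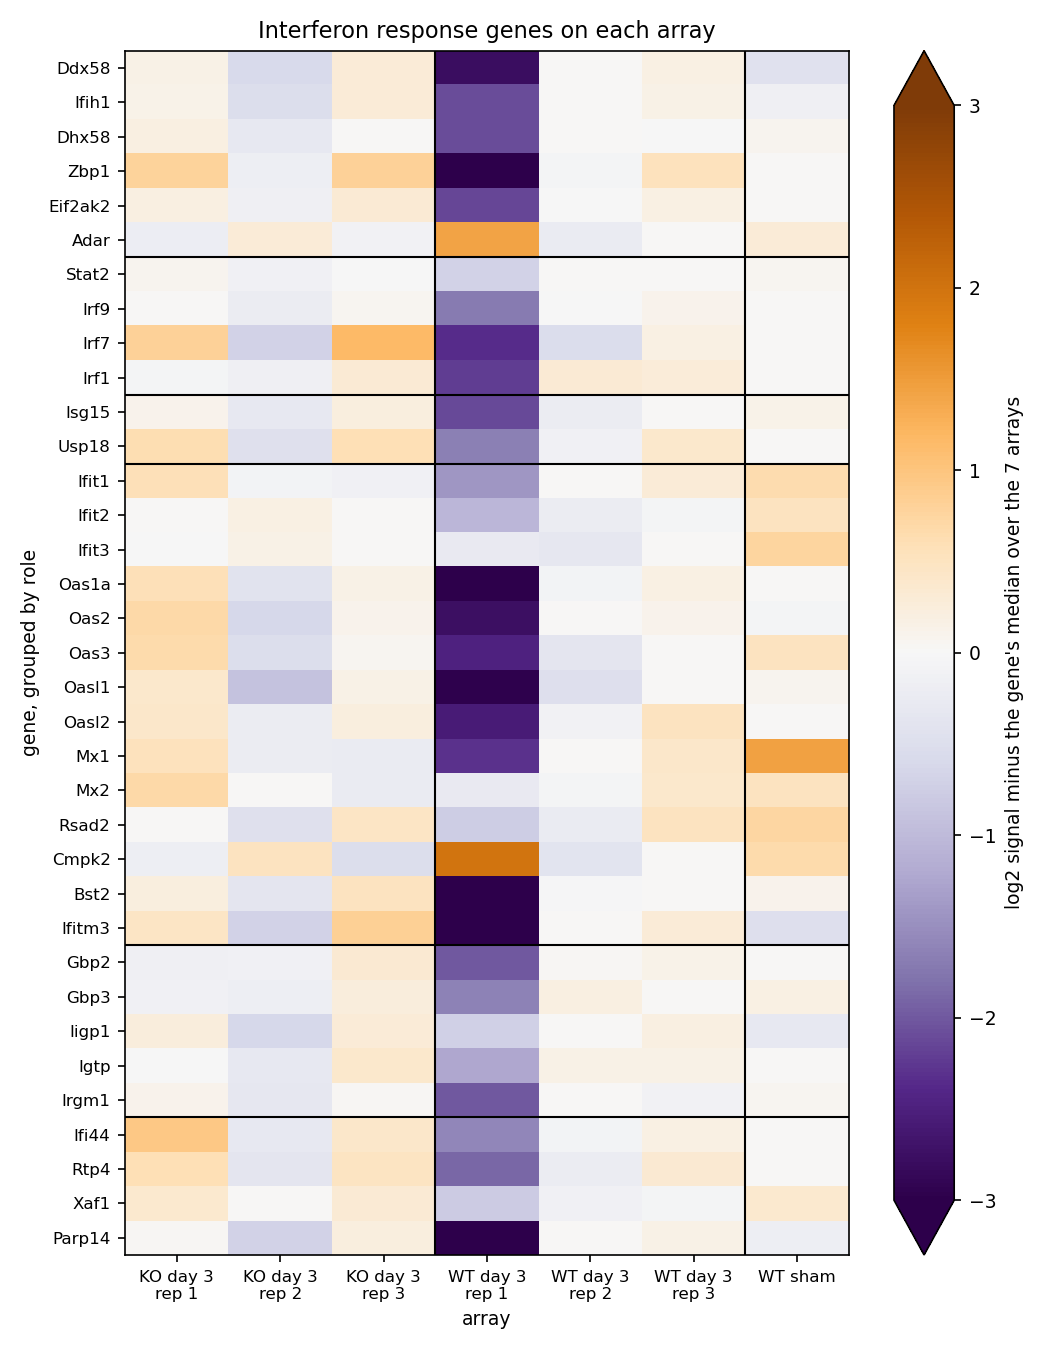
Heat map of the 35 genes, grouped by role from top to bottom, with knockout day 3, wild type day 3 and sham arrays from left to right. Colour is the log2 signal minus the gene's median over the 7 arrays, with the scale ending at -3 and 3. Wild type day 3 replicate 1 is the lowest array in 32 of 35 genes and the highest in Adar and Cmpk2, and the sham array is the highest in 6.

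No interferon response gene passed the test between knockout and wild type brains on day 3. With limma and Benjamini-Hochberg adjustment over all genes, 0 of 23312 genes were called higher (0%) and 0 lower (0%), and the smallest adjusted p of any member was 0.862. At an unadjusted p under 0.05 there were 197 genes in all (0.845%) and 0 members. The knockout mean was above the wild type mean in 33 of 35 members, against 46.9% of all genes, and the median member difference was 0.65 on the log2 scale, against -0.03 over all genes. The exceptions were Adar, the enzyme that edits adenosine in double-stranded RNA, at -0.39 (standard error 0.48) and Cmpk2, a mitochondrial nucleotide kinase, at -0.59 (standard error 0.68).

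Without wild type day 3 replicate 1 this difference was not seen. Then 18 members had the higher mean in knockout and 17 in wild type, against 50.4% of all genes higher in knockout, and the median member difference was 0.01. Adar, at 0.13 (standard error 0.21), and Cmpk2, at 0.13 (standard error 0.35), were then among those higher in knockout. The 35 differences ran from -0.26 for Irf1, a factor induced mainly by interferon gamma, to 0.60 for Irf7, the factor that amplifies interferon production. Their median standard error was 0.28, against 0.62 with all arrays. The call was 0 of 35 members in both fits, with 0% of all genes called and 1.63% at an unadjusted p under 0.05 (0 members) without the array, where the smallest adjusted p of a member was 1.0 (limma). By role, the median difference with all arrays was 0.73 in the sensors, 0.53 in the transcription factors, 0.76 in the ISG15 system, 0.76 in the effectors, 0.46 in the GTPases and 0.82 in the other induced genes. Without the array it was 0.01 in the sensors, -0.06 in the transcription factors, 0.13 in the ISG15 system, 0.06 in the effectors, -0.12 in the GTPases and 0.25 in the other induced genes.

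**Figure D2:**
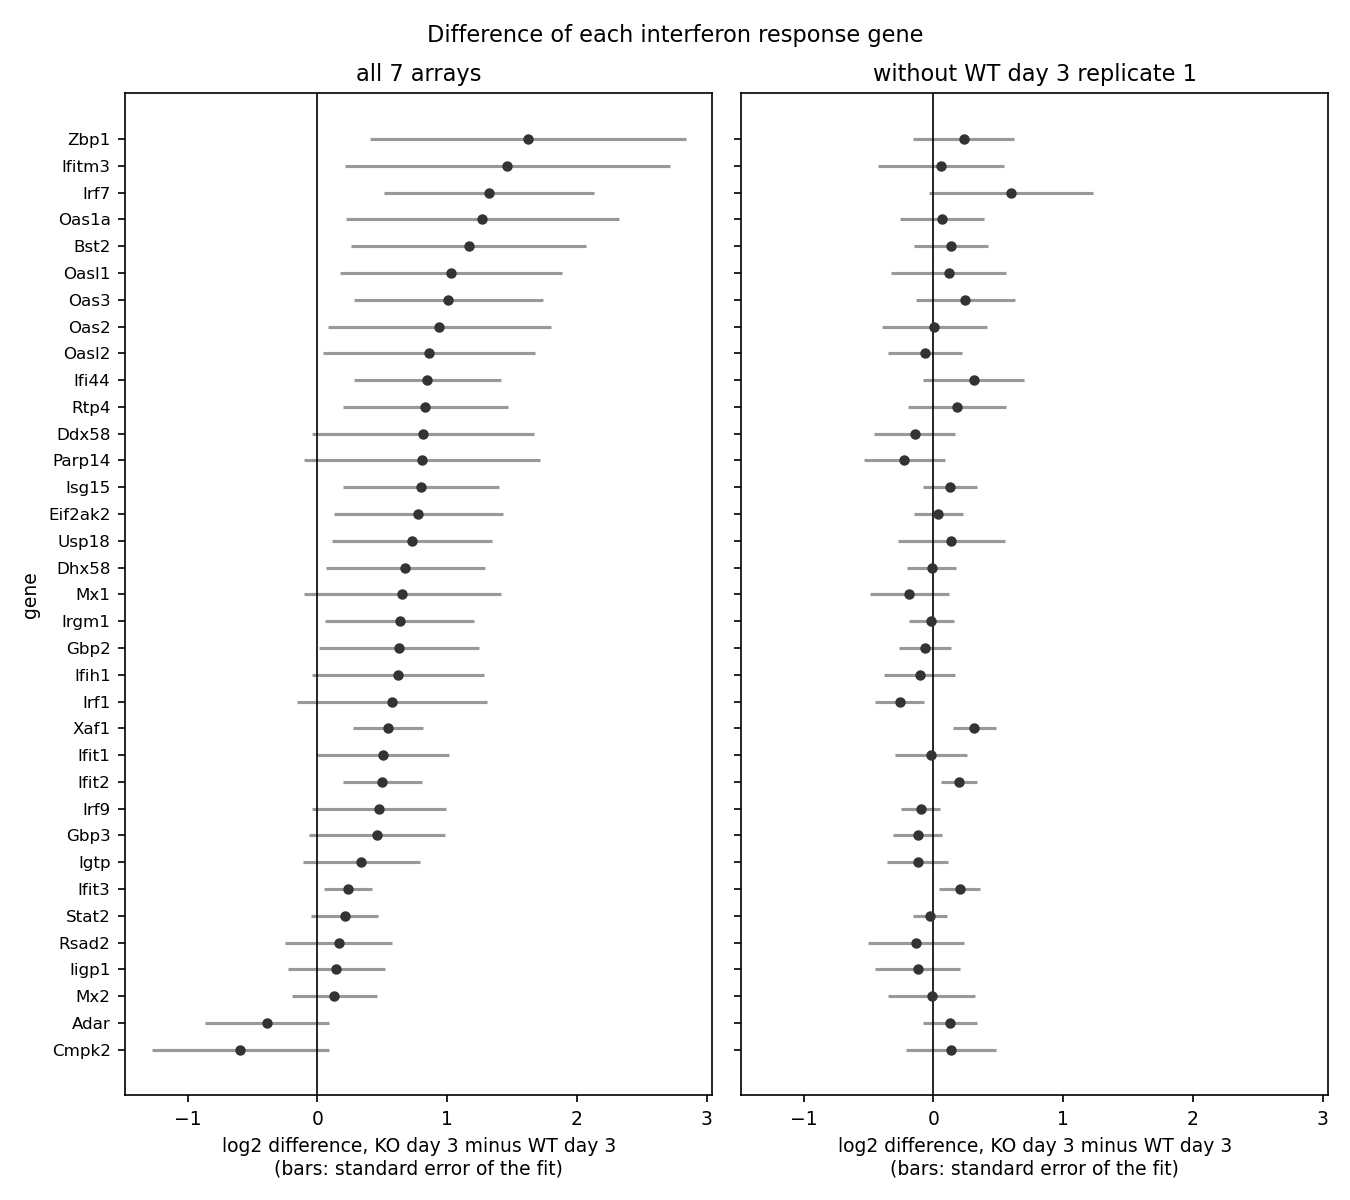
Log2 difference of each of the 35 genes, knockout day 3 minus wild type day 3, with all 7 arrays on the left and without wild type day 3 replicate 1 on the right. Points are the fitted differences and bars their standard errors, and genes are ordered by the left panel. On the left 33 of 35 points lie above 0, and on the right 18 of 35.

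Only Ifit2 and Xaf1 had all 3 knockout arrays above all 3 wild type day 3 arrays, which is 2 of 35 members, against 1.88% of all genes. No member had them all below, against 2.65%. Ifit2, an RNA-binding antiviral protein, read -2.08, -1.93 and -2.10 in knockout, -3.14, -2.32 and -2.14 in wild type day 3 and -1.60 in sham. The nearest knockout and wild type arrays were thus almost level. The difference was 0.50 (standard error 0.31, limma, unadjusted p = 0.155), and 0.20 (standard error 0.14) without wild type replicate 1.

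Xaf1, a factor that promotes cell death by opposing XIAP, read -0.66, -1.01 and -0.70 in knockout, -1.81, -1.15 and -1.06 in wild type day 3 and -0.66 in sham. The groups did not overlap, but knockout replicate 2 lay next to wild type replicate 3. The difference was 0.55 (standard error 0.27, limma, unadjusted p = 0.0911), the smallest p of any member, and 0.31 (standard error 0.17) without wild type replicate 1. The dimmer Xaf1 probe read -5.24, -5.79 and -5.28 in knockout, -7.13, -5.54 and -5.32 in wild type day 3 and -5.43 in sham. On that probe the groups overlapped. Leaving out wild type replicate 1 left the same 2 genes without overlap, against 6.32% of all genes, and 0 with the knockout arrays below, against 5.33%.

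Ifi44, an induced cytoplasmic protein, read -3.07, -4.30 and -3.60 in knockout, -5.58, -4.10 and -3.83 in wild type day 3 and -4.01 in sham. The groups overlapped, since knockout replicate 2 lay below 2 of the wild type arrays. The difference was 0.85 (standard error 0.57), and 0.31 (standard error 0.39) without wild type replicate 1.

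Among the members, Zbp1 showed the largest displacement of wild type replicate 1. Zbp1, a sensor of Z-form nucleic acids that can start necroptosis, read -0.74, -1.70 and -0.73 in knockout, -5.46, -1.58 and -1.0 in wild type day 3 and -1.53 in sham. Wild type replicate 1 lay 13.6-fold below the lowest of the other arrays, and its other probe, at -7.07 against -3.66 to -3.15 elsewhere, was displaced likewise. The difference between knockout and wild type was 1.62 (standard error 1.22), the largest of any member, and 0.23 (standard error 0.39) without that array.

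Ddx58, which encodes RIG-I, the sensor of RNA ends, read 0.67, -0.08 and 0.82 in knockout, -2.26, 0.53 and 0.70 in wild type day 3 and 0.08 in sham. Knockout replicate 2 was close to sham, and the other knockout arrays were level with wild type replicates 2 and 3. Ifih1, which encodes MDA5, the sensor of long double-stranded RNA, read 0.02, -0.61 and 0.17 in knockout, -2.22, -0.12 and 0.04 in wild type day 3 and -0.27 in sham. The order of the arrays was that of Ddx58, and the groups overlapped in both. Dhx58, which encodes the related regulator LGP2, and Eif2ak2, the kinase that halts translation on sensing double-stranded RNA, lay 3.47-fold and 3.97-fold below the lowest other array on wild type replicate 1.

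The probes of Adar disagreed. The brighter read 0.10, 0.59 and 0.20 in knockout, 1.70, 0.04 and 0.29 in wild type day 3 and 0.58 in sham, so wild type replicate 1 was the highest array. The other read 0.33, -0.17 and 0.20 in knockout, -0.52, 0.20 and 0.21 in wild type day 3 and -0.01 in sham, with that array the lowest. The direction of Adar thus depends on the probe.

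Among the transcription factors, Irf7 varied most between the knockout arrays. It read -2.25, -3.75 and -1.88 in knockout, -5.41, -3.57 and -2.87 in wild type day 3 and -3.05 in sham. Knockout replicates 1 and 3 lay above every other array, and knockout replicate 2 lay below sham. The difference was 1.32 (standard error 0.81), and 0.60 (standard error 0.63) without wild type replicate 1. The file gives no genome position for the Irf7 probe.

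Stat2 and Irf9 varied less. Stat2 read 1.38, 1.16 and 1.27 in knockout, 0.59, 1.31 and 1.29 in wild type day 3 and 1.35 in sham. Apart from wild type replicate 1 all its arrays lay close together. Irf9, the DNA-binding subunit, read 1.61, 1.36 and 1.64 in knockout, -0.10, 1.58 and 1.69 in wild type day 3 and 1.59 in sham. Irf1 read 1.87, 1.77 and 2.25 in knockout, -0.29, 2.24 and 2.20 in wild type day 3 and 1.93 in sham. In both, wild type replicate 1 was the only array far from the rest and the groups overlapped.

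Promoters of some members are shown as RefSeq gives them on GRCm38.p6, each as the 180 bases before the annotated start on the gene's own strand. Whether they bear on the patterns between arrays was not tested. Capitals mark the core of the interferon-stimulated response element, searched on both strands as GAAA, any 2 bases and GAAA again, and overlapping matches run together. Isg15 and Bst2 are shown as genes low on wild type replicate 1, Ifit1, Ifit3 and Rsad2 as genes highest on the sham array, and Cmpk2, the neighbour of Rsad2 on the opposite strand, as one that was high on wild type replicate 1.
Isg15 (chr4:156200819-156200998, minus strand): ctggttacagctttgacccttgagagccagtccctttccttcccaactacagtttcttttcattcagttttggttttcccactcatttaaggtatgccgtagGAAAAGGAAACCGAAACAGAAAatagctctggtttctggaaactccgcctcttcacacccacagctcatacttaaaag
Bst2 (chr8:71537473-71537652, minus strand): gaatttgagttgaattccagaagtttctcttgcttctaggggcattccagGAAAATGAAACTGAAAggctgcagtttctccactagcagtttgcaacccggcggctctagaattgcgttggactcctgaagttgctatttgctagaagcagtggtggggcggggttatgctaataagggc
Ifit1 (chr19:34640709-34640888, plus strand): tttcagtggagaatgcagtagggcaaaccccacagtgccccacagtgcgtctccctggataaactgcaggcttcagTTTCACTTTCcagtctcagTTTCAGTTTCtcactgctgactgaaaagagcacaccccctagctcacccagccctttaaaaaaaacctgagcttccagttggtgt
Ifit3 (chr19:34583349-34583528, plus strand): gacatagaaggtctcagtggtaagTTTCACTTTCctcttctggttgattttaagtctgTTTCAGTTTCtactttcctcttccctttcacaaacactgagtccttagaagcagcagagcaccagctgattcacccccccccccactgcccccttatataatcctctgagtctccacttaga
Rsad2 (chr12:26456453-26456632, minus strand): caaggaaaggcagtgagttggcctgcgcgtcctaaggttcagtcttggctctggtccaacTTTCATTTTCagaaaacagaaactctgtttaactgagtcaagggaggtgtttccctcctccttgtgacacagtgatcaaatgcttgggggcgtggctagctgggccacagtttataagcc
Cmpk2 (chr12:26469035-26469214, plus strand): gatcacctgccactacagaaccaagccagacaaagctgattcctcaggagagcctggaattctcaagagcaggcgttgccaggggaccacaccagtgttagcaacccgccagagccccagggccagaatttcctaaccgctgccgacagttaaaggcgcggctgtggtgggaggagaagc

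Isg15 has 3 overlapping matches in this stretch, Bst2 2 overlapping ones, Ifit1 and Ifit3 2 separate ones each on the opposite strand, Rsad2 1 and Cmpk2 0. RefSeq promoters of 300 bases, from 250 before to 50 after the start, were at hand for 26 of the 35 members. The core occurred in 16 of these 26 (61.5%), against 3.99% of 27025 genes. The gamma-activated sequence, an element of genes induced by interferon gamma, searched as TTCNNNGAA on both strands, occurred in 8 of 26 (30.8%), against 9.55% of all genes. Of the 6 members highest on the sham array, the response element core was found for Ifit1, Ifit3 and Rsad2 and not in the windows of Ifit2 and Xaf1, while Mx1 was not searched. Members without the core included Irf9, Irf7, Irf1, Ifit2, Oasl1, Oasl2, Ifi44 and Xaf1, all lowest on wild type replicate 1. The others without it were Cmpk2 and, by its brighter probe, Adar, both highest there. A match is a description of the letters and not a site of binding.

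The ISG15 system comprises a ubiquitin-like protein and its protease. Isg15, the ubiquitin-like protein, read 1.82, 1.42 and 1.94 in knockout, -0.41, 1.49 and 1.71 in wild type day 3 and 1.83 in sham. Its probe shares a run of 20 bases with a probe of Gm9706, so the level may hold signal of both. The second Isg15 probe, which shares none, read -2.53, -3.50 and -2.54 in knockout, against -4.77, -3.17 and -3.01 in wild type day 3 and -2.99 in sham. On both probes wild type replicate 1 was the lowest array and knockout replicate 2 the next.

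Usp18, the protease that removes ISG15 and restrains the receptor, read -1.18, -2.26 and -1.21 in knockout, -3.46, -1.94 and -1.43 in wild type day 3 and -1.81 in sham. Knockout replicates 1 and 3 were the highest arrays and knockout replicate 2 was below sham, so the groups overlapped. Its difference was 0.73 (standard error 0.61), and 0.14 (standard error 0.41) without wild type replicate 1.

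Ifitm3, a membrane protein that blocks the entry of viruses, read 3.63, 2.49 and 4.0 in knockout, -0.90, 3.17 and 3.47 in wild type day 3 and 2.68 in sham. Wild type replicate 1 lay 10.5-fold below the lowest other array. Ifitm3 has 10 spots on each array, whose SD was 0.04 to 0.09, and the GTPase Igtp has 10 spots with an SD of 0.08 to 0.10. The spots show how closely 1 array was read and not how samples vary. For Igtp, wild type replicates 2 and 3, at 0.62 and 0.61, and likewise knockout replicate 1 and sham, at 0.45 and 0.46, differed by less than the SD of the spots. The difference of Ifitm3 was 1.47 (standard error 1.25), and 0.06 (standard error 0.49) without wild type replicate 1.

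**Figure D3:**
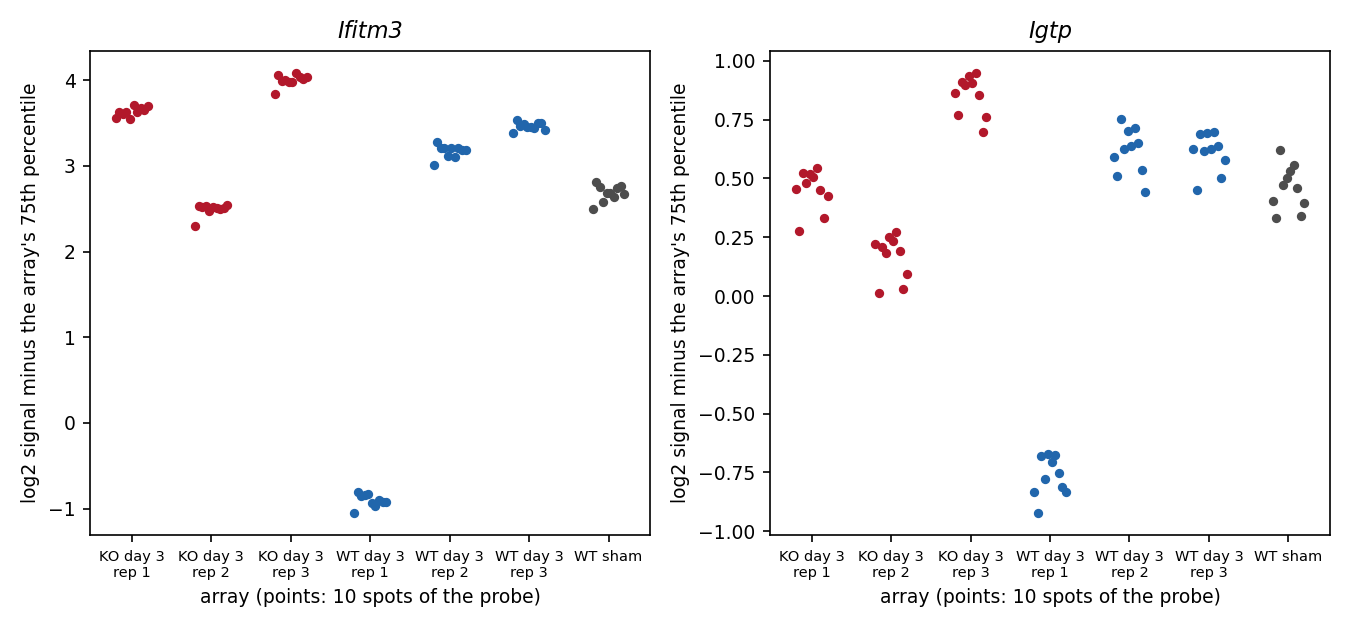
The 10 spots of the Ifitm3 probe (left) and of the Igtp probe (right) on each array, as log2 signal minus the array's 75th percentile, with knockout day 3 arrays in red, wild type day 3 in blue and sham in grey. Each point is 1 spot. The spots of wild type day 3 replicate 1 lie at -1.05 to -0.81 for Ifitm3 and -0.92 to -0.67 for Igtp, below all spots of the other arrays.

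Bst2, the membrane tether that holds budding virus at the cell surface, read 2.08, 1.5 and 2.36 in knockout, -1.25, 1.83 and 1.87 in wild type day 3 and 1.96 in sham. Wild type replicate 1 lay 6.74-fold below the lowest other array, which was knockout replicate 2. Oasl2, a member of the oligoadenylate synthase family, read 0.75, 0.13 and 0.57 in knockout, -2.22, 0.24 and 0.85 in wild type day 3 and 0.35 in sham. The groups overlapped in both genes. Oas1a, a synthase of the activator of RNase L, lay 9.01-fold below the lowest other array on wild type replicate 1, and Oas2 and Oasl1 lay 4.41-fold and 4.19-fold below it. Oas3, not well above background on that array, read -8.53 there, against -6.57 to -5.39 on the other arrays.

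The GTPases act on the vacuoles of intracellular pathogens. Gbp2 read 0.06, 0.07 and 0.55 in knockout, -1.79, 0.26 and 0.33 in wild type day 3 and 0.21 in sham. Igtp read 0.45, 0.17 and 0.85 in knockout, -0.77, 0.62 and 0.61 in wild type day 3 and 0.46 in sham. In both, wild type replicate 1 was lowest, knockout replicate 3 was higher than the other knockout arrays and the groups overlapped. Gbp3 and Irgm1 lay 2.74-fold and 3.20-fold below the lowest other array on wild type replicate 1. The Iigp1 probe was only 1.07-fold below it, but a dimmer probe of Iigp1 read -6.04 there, against -4.80 to -3.51 on the other arrays.

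Across the members, wild type day 3 replicate 1 was below each of the other 6 arrays in 32 of 35, against 34.3% of all genes, and above them in 2, against 43.9%. It was at least 2-fold below the lowest other array in 25 members (Oas3, not well above background there, among them), against 13.1% of all genes, and at least 4-fold below in 11, against 6.21%. Ifit3 was the member it did not separate. Both probes of Cmpk2 were highest there, the brighter at -0.57, against -3.07 to -1.90 on the other arrays. Rtp4, a chaperone of receptors, and Parp14, an ADP-ribosyltransferase, were 2.86-fold and 4.99-fold below the lowest other array.

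Markers of several cell types moved with that array, on which 34.3% of all genes were lowest and 43.9% highest. Sums, here and below, are the log2 of the added unlogged levels of the markers of a type, so the brightest markers weigh most. Of 7 measured monocyte and macrophage markers 7 were lowest there (Ly6c2 was not measured). Their sum was -0.51, against 4.59 to 5.68 in knockout, 5.0 to 5.22 in the other wild type day 3 arrays and 4.37 in sham. Of 8 microglial markers 6 were lowest there, with a sum of 5.87, against 6.79 to 6.99 in knockout, 6.69 to 6.90 in the other wild type arrays and 6.96 in sham. The other 2 were highest there: P2ry12 read 0.14, against -1.03 to -0.36 on the other arrays, and Siglech 4.48, against 3.77 to 4.32. Of 6 neutrophil markers 4 were lowest there, with a sum of -1.42, against 3.74 to 4.91 in knockout, 4.5 to 4.96 in the other wild type arrays and 2.18 in sham. Of 6 endothelial markers 5 were lowest there, with a sum of 3.57, against 5.08 to 6.04 in knockout, 5.76 in each of the other wild type arrays and 4.77 in sham. All 8 neuronal markers were highest there, with a sum of 7.26, against 3.96 to 5.55 in knockout, 5.07 to 5.09 in the other wild type arrays and 5.59 in sham. Astrocyte markers were lowest there in 1 of 6 and highest in 2, and oligodendrocyte markers were neither in any of 6. T and NK cell markers were lowest in 2 of 6 and highest in 1. The highest was Cd4, at 0.89, against -1.63 to -1.04 on the other arrays. The sum of these markers, 1.44, was the highest of any array, while their median, -3.86, was the lowest of any array. Red blood cell markers were lowest in 2 of 3. Plasmacytoid dendritic cell markers were lowest in 1 of 4 and highest in 1. The lowest was Bst2, at -1.25, which is itself a member and so is no readout separate from the interferon response genes. The highest was Siglech, already counted among the microglial markers. The part of the markers of all these cell types in the levels of the interferon response genes was not tested.

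Knockout replicate 2 was the lowest knockout array in 27 of 35 members, against 46.7% of all genes. Leaving out wild type replicate 1, it was the lowest of the 6 remaining arrays in 26 members, against 20.8%. Endothelial markers were lowest of the knockout arrays there in 5 of 6, with a summed level of 5.08, against 5.95 and 6.04 in the other knockout arrays. Monocyte and macrophage markers were lowest there in 4 of 7, with a sum of 4.59, against 5.02 and 5.68, and microglial markers in 1 of 8. Neutrophil markers were lowest there in 4 of 6, with a sum of 3.74, against 4.07 and 4.91, and red blood cell markers in 3 of 3, with a sum of 0.25, against 0.79 and 2.28. Neuronal markers were lowest there in 1 of 8, and their sum was raised, at 5.55, against 3.96 and 4.45. Plasmacytoid dendritic cell markers, with the member Bst2 and the microglial marker Siglech among them, were lowest there in 4 of 4, and T and NK cell markers in 1 of 6. Astrocyte and oligodendrocyte markers were lowest there in 0 of 6 each. The part of these markers was not tested. Wild type day 3 replicate 3 was above replicate 2 in 29 of 35 members, against 49.5% of all genes.

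Between wild type day 3 and sham, which shared a slide, no member passed the test. In all, 3 of 23312 genes were called, each higher on day 3 (0.0129%), and 0 lower (0%). The smallest adjusted p of a member was 1.0 (limma). The wild type day 3 mean was below sham in 33 of 35 members, against 45.9% of all genes, with a median difference of -0.72, against 0.03 over all genes. Without wild type replicate 1 it was below sham in 18 of 35, against 49.3%, and the median was -0.05, with 6 genes called (0.0257%) and 0 members. At an unadjusted p under 0.05 (limma) there was 1 member, Ifit3, with all arrays, against 1.12% of all genes. Without wild type replicate 1 there were 3, Ifit2, Ifit3 and Mx1, against 4.52%, each lower than sham.

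Between knockout day 3 and sham no member passed either, and 3 genes were called, each higher (0.0129%), with 0 lower (0%). The knockout mean was above sham in 18 of 35 members, against 50.4% of all genes, with a median difference of 0.02, against 0.00 over all genes. At an unadjusted p under 0.05 (limma) there was again 1 member, Ifit3, against 1.3% of all genes. Without wild type replicate 1 there were 2, Ifit3 and Mx1, against 4.91%, each lower than sham, with 8 genes called (0.0343%) and 0 members. These comparisons share the 1 sham array, which is assumed in the fit to vary like the day 3 arrays, and genotype and occlusion both differ in the second.

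The members nearest to a call against sham were IFIT and MX genes, and all were highest on the sham array. The sham array was above each of the 6 day 3 arrays in 6 members, against 6.67% of all genes, and below them in 0, against 10.4%. The 6 were Ifit1, Ifit2, Ifit3, Mx1, Rsad2 and Xaf1. Wild type replicate 1 was itself the highest array in 43.9% of all genes and in 2 members, which lowers the 6.67%. Without that array there were 7 of 35, with Cmpk2 added, which is near the 21.8% of all genes. None lay below, against 24.9%. Under other scalings of all 7 arrays the count was 4 to 7, and Ifit2, Ifit3, Mx1 and Rsad2 were among them under each. Ifit1 was not among them with normexp or quantile normalization, and Xaf1 not with these or with the mean of a gene's probes.

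Ifit3, whose product binds viral RNA together with Ifit1, read -0.41, -0.25 and -0.39 in knockout, -0.66, -0.71 and -0.39 in wild type day 3 and 0.37 in sham. All 6 day 3 arrays lay within a narrow band below sham, and wild type replicate 1 was inside that band. The difference from sham was -0.72 in knockout (standard error 0.26, limma, unadjusted p = 0.0343) and -0.96 in wild type (standard error 0.26, limma, unadjusted p = 0.0113). Without wild type replicate 1 it was -0.72 in knockout (standard error 0.20) and -0.92 in wild type (standard error 0.21). Its probe lies at chr19:34663105-34663164 on mm9.

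Mx1, an antiviral dynamin-like GTPase of the nucleus, read -3.30, -4.04 and -4.07 in knockout, -6.14, -3.83 and -3.41 in wild type day 3 and -2.38 in sham. Sham was the highest array. The difference from sham was -1.43 in knockout (standard error 1.07) and -2.08 in wild type (standard error 1.07). Without wild type replicate 1 it was -1.43 in knockout (standard error 0.39, limma, unadjusted p = 0.0155) and -1.24 in wild type (standard error 0.41, limma, unadjusted p = 0.0313). Mx2, its relative in the cytoplasm, read -2.37, -3.07 and -3.32 in knockout, -3.34, -3.12 and -2.69 in wild type day 3 and -2.56 in sham. For Mx2 knockout replicate 1 was above sham and the other arrays below it.

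Ifit1 read -2.13, -2.79 and -2.85 in knockout, -4.14, -2.71 and -2.43 in wild type day 3 and -2.07 in sham. Knockout replicate 1 was nearly level with sham and the other day 3 arrays were lower. Rsad2, which makes a chain-terminating nucleotide that stops viral polymerases, read -3.33, -3.80 and -2.88 in knockout, -4.10, -3.58 and -2.83 in wild type day 3 and -2.60 in sham. The highest array of each day 3 group was close to sham. Ifit2 differed from sham by -0.44 in knockout (standard error 0.43) and by -0.94 in wild type (standard error 0.43), and by -0.44 and -0.64 without wild type replicate 1 (standard errors 0.18 and 0.19). For Xaf1 the sham value exceeded that of knockout replicate 1 by too little to show at 2 decimals. On the dimmer Xaf1 probe sham was not the highest array. There sham, at -5.43, lay below knockout replicates 1 and 3, at -5.24 and -5.28, and wild type replicate 3, at -5.32.

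**Figure D4:**
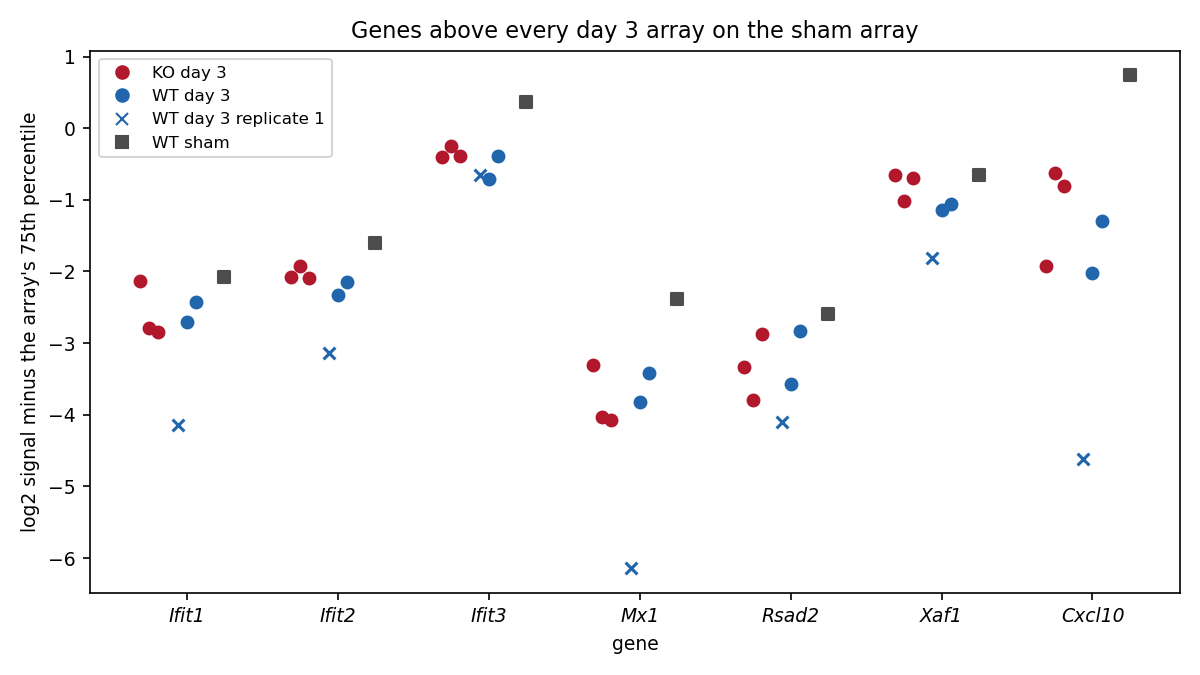
Levels of the 6 members that were highest on the sham array, and of Cxcl10, as log2 signal minus the array's 75th percentile, with knockout day 3 (red) left of wild type day 3 (blue) and the sham array (grey square) on the right for each gene. Each point is 1 array and the cross is wild type day 3 replicate 1. The gap to sham is widest for Cxcl10, with 0.74 in sham.

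Markers of cell types also differed between the day 3 arrays, apart from wild type replicate 1, and the sham array. Over all genes, sham was below each of these 5 arrays in 24.9% and above each in 21.8%. Neutrophil markers were above sham on each of these 5 arrays in 5 of 6, with summed levels of 3.74 to 4.91 in knockout and 4.5 to 4.96 in wild type, against 2.18 in sham. Monocyte and macrophage markers were above sham in 4 of 7, with sums of 4.59 to 5.68 in knockout and 5.0 to 5.22 in wild type, against 4.37 in sham. Endothelial markers were above it in 5 of 6 and red blood cell markers in 3 of 3. Astrocyte markers were below sham in 3 of 6, with sums of 3.61 to 5.47 in knockout and 4.91 to 5.30 in wild type, against 5.49 in sham. Neuronal markers were below it in 4 of 8, microglial markers in 4 of 8 (1 was above it) and oligodendrocyte markers in 2 of 6. On knockout replicate 2 the microglial sum, at 6.99, was above sham, at 6.96. The oligodendrocyte sum there, at 7.22, was likewise above sham, at 7.12. T and NK cell markers, with Cd3d, Cd3g and Cd8a not measured, had sums of 0.33 to 0.58 in knockout, 0.50 to 0.56 in the other wild type arrays and 0.36 in sham. Their part in the levels of the interferon response genes was not tested.

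Genes around the members were counted from 5 further lists, and 0 genes of these lists were called in any of the 3 comparisons with or without wild type replicate 1 (limma). Of these lists 11, 15, 18, 39 and 16 genes were measured. At an unadjusted p under 0.05 (limma) with all arrays there was 1 between knockout and wild type, Ifna2, against 0.845% of all genes. Between knockout and sham there were 2, Ifna2 and Ifnk, against 1.3%, and between wild type and sham 1, Cxcl10, against 1.12%. Without wild type replicate 1 there was again Ifna2 between knockout and wild type, against 1.63%. There were then 3 between knockout and sham, against 4.91%, of which Ifna2 was higher and Cd74 and Cxcl10 lower in knockout. Between wild type and sham there were 5, against 4.52%. Of these, Ifna2, Ifna5 and Nos2 were higher and Cd74 and Cxcl10 lower in wild type. The counts are near the shares of all genes. Of 18 interferon genes, 11 passed the filter on dim probes, all of them dim, and Ifnb1, Ifng, Ifna4 and Ifne were well above background on fewer than 3 arrays. Members of the Ifna family are near copies, so their probes may not tell them apart. The smallest p among ligands between knockout and wild type was that of Ifna2, at -5.65, -5.88 and -5.46 in knockout, -6.25, -6.16 and -6.25 in wild type day 3 and -6.83 in sham. Its groups did not overlap, with a difference of 0.56 (0.55 without wild type replicate 1), and it was not called. Ifnk, a type I interferon of skin, read -7.20, -7.01 and -7.90 in knockout, -7.15, -7.72 and -7.06 in wild type day 3 and -6.20 in sham, where it was highest.

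All 15 receptor, kinase, STAT and inhibitor genes were measured, and wild type replicate 1 was lowest in 12. Ifnar1 read 1.61, 1.20 and 1.79 in knockout, 0.55, 1.82 and 1.49 in wild type day 3 and 1.48 in sham. Ifnar2 read 2.11, 1.89 and 2.63 in knockout, 0.46, 2.30 and 2.30 in wild type day 3 and 2.17 in sham. Ifngr1, the ligand-binding chain for interferon gamma, read 2.65, 2.24 and 2.60 in knockout, 0.74, 2.55 and 2.46 in wild type day 3 and 2.26 in sham. The 3 receptors had the same lowest array and overlapping groups. Socs3, a feedback inhibitor of cytokine receptors, differed by 2.05 between knockout and wild type with all arrays and by -0.02 without wild type replicate 1.

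All 18 genes of the sensing pathways were measured, with a median difference between knockout and wild type of 0.67, and 0.02 without wild type replicate 1. Mavs, the mitochondrial adaptor of Ddx58 and Ifih1, read 0.52, 0.37 and 0.92 in knockout, -1.05, 0.62 and 0.74 in wild type day 3 and 0.58 in sham. Sting1 (Tmem173), the adaptor of the DNA sensor Cgas, read 2.23, 2.03 and 2.54 in knockout, -0.82, 2.45 and 2.42 in wild type day 3 and 1.92 in sham. Both followed the members, with wild type replicate 1 lowest and the other day 3 arrays overlapping.

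Of 40 further interferon-stimulated genes, 39 were measured. Wild type replicate 1 was lowest in 35 of them. Without that array, their mean was above sham in 32 of 39 in knockout and in 32 of 39 in wild type, with medians of 0.24 and 0.23. Among the 35 members the corresponding counts were 18 and 17, against 50.4% and 50.7% of all genes, with medians of 0.02 and -0.05. The sham array is shared by these comparisons and the difference between the lists was not tested.

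Of 18 genes induced by interferon gamma in antigen processing and chemotaxis, 16 were measured, and Cxcl9 and Ido1 did not pass the filter. Cxcl10, the chemokine that draws T cells through Cxcr3, read -1.93, -0.63 and -0.81 in knockout, -4.62, -2.02 and -1.29 in wild type day 3 and 0.74 in sham. Sham was far above the day 3 arrays, with a log2 difference from sham of -1.86 in knockout and -3.38 in wild type (standard error 1.31 each), without a call. The difference without wild type replicate 1 was -1.86 in knockout (standard error 0.61) and -2.39 in wild type (standard error 0.65), again without a call. Cd74, the chaperone of MHC class II, read 0.64, 0.74 and 0.51 in knockout, -2.39, 0.73 and -0.03 in wild type day 3 and 1.53 in sham. It too was highest in sham, as was Psmb8, a subunit of the immunoproteasome, by a smaller margin.

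**Figure D5:**
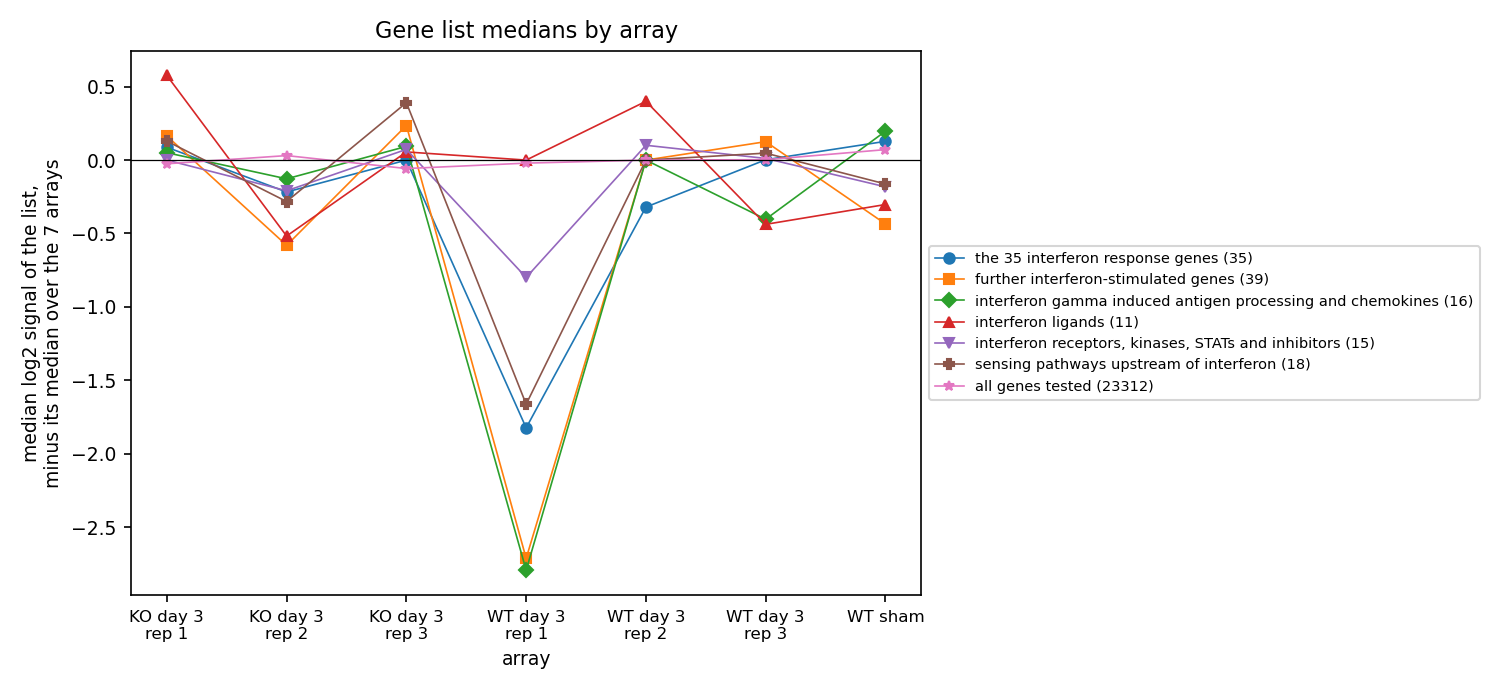
Median log2 signal of the 35 interferon response genes, of the 5 further lists and of all genes tested on each array, each minus its own median over the 7 arrays, with knockout day 3 arrays left of wild type day 3 and sham. Lines only join points of a list, and the number of genes is in the legend. All lists but the ligands are lowest on wild type day 3 replicate 1, where the median of the 35 genes is -2.22 before centring, while all genes tested stay near 0.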

How the data were processed

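Per the labels' protocols, total RNA from each brain sample was amplified and labelled with Cy3. Per the file headers, Agilent Feature Extraction 11.5.1.1 subtracted the background and removed spatial trends within each array, and the deposited intensity values are its processed signal. The authors' deposited value table holds a linear ratio, each array's processed intensity over its 75th percentile, to within 0.0428%, and was an alternative only.

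Here the intensity was taken to log2, the array's 75th percentile over non-control spots was subtracted, spots with outlier flags were left out and spots of a probe averaged. The filter kept probes that were well above background on 3 or more of the 7 arrays, with the brightest probe by mean per gene. Names came through RefSeq (GRCm38.p6) for 28315 of 39401 probes, and probe positions are those of the files (mm9). All 23312 genes were fitted with limma 3.58.1 in R 4.3.3 as 3 groups (4 residual and 1.68 prior degrees of freedom), two-sided, with Benjamini-Hochberg adjustment and a 0.05 threshold. An exact permutation test of 3 arrays against 3 has a smallest p of 0.1. Precision is limited by the few arrays. Shared bases between probes were runs of 20. Plots used Python 3.11.15 and matplotlib 3.10.9.

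Samples were grouped by title. Alternatives were normexp background correction with an offset of 50, quantile normalization, other filters and percentiles, the mean of a gene's probes, array weights, a replicate block and leaving out each array. Members were matched by gene name, and the set of names, the lists and the tests were chosen with earlier results of these data known. Values by array are given for the members with the 6 highest means, the 4 with the smallest p in each comparison, those without overlap and the leaders of each role. Cmpk2, Adar and second probes are given beyond that rule, chosen after their values were seen. Of the further lists, values by array are given for receptors, adaptors, Cxcl10 and up to 2 genes with the smallest p per list and comparison. A gene of these lists that the rule gives is not reported here.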

Additional observations from a re-analysis of the deposited data

How the results depend on the processing

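No member was called under any alternative run, and the smallest adjusted p of a member was 0.0515 (limma with array weights, wild type day 3 against sham). Between knockout and wild type, 0 genes were called under the alternatives run except array weights, which gave 2 and a median member difference of 0.19 in place of 0.65. There wild type replicate 1 had a weight of 0.0513, and the weights did not fully converge. Leaving out 1 array at a time gave 0 genes and a median member difference of 0.01 to 1.03, the lowest without wild type replicate 1. Between wild type day 3 and sham, 3 genes were called, against 0 with normexp, 1 with quantile normalization, 1 with the percentile over probes above background on all arrays, 0 with those probes alone, 147 with array weights (median member difference -0.05) and 0 with only the arrays compared. Leaving out 1 array gave 0 to 6 genes, with 6 without wild type replicate 1. Between knockout and sham, 3 genes were called, against 0, 1, 0, 0, 94 and 0 under the same alternatives. Leaving out 1 array gave 0 to 8 genes, with 8 without wild type replicate 1, and a median member difference of -0.14 to 0.13. The causes were not tested. Normexp moved the median of all genes against sham to 0.10 in wild type and 0.11 in knockout.

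Whether the replicate numbers pair the samples could not be told. The correlations of same-numbered deviations from the group means were -0.38, -0.56 and 0.35, and not every sample correlated best with its own number. Deviations within a group of 3 arrays cancel, so the outlying wild type replicate 1 largely sets those of wild type replicates 2 and 3. With a replicate block, 0 genes were called in each comparison, and the median member difference was -1.31 between wild type day 3 and sham, in place of -0.72, and -0.66 between knockout and sham, in place of 0.02.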
